A study of Homo sapiens
Mus musculus with 24 samples.

Results

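The genes described here are 53 genes of hypoxia and glycolysis, 31 human and 22 murine, measured in tumours that hold human cancer cells inside a mouse host. They were taken by symbol from a list of hypoxia-inducible factor (HIF) targets, HIF regulators and glycolytic enzymes, and all listed genes were found. They make up 53 of 35547 genes counted, 31 of 18880 in the human table and 22 of 16667 in the murine table. Human genes (capitals) read the tumour cells and murine genes read the host cells of the same piece of tissue, so the same pathway can be followed on both sides. The tumours were grown from MDAMB231 cells, a line derived from a human triple-negative breast adenocarcinoma. The cells were injected under the skin at the base of the neck into B6 mice lacking Rag1 (B6/Rag1KO). Such mice make no mature T or B lymphocytes, and the labels name 1 injected line. The labels give the age at injection as 14 weeks, and the study's paper gives a different age. The 24 libraries, 1 a mouse, fall into 5 groups. The mice of 4 groups ate a high-fat diet: vehicle controls given saline (CTRL, n = 4), doxorubicin plus cyclophosphamide each week by intraperitoneal injection (Chemo, n = 5), moringa concentrate in the diet (MC, n = 5), and both treatments (MC + Chemo, n = 6). Untreated mice on a lean diet (Lean, n = 4) were the diet control. Libraries are named here by group and mouse number.

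HIF is a pair of proteins whose alpha subunit, encoded by HIF1A, is made all the time and destroyed when oxygen is present. Prolyl hydroxylases such as EGLN3 mark it for destruction, and at low oxygen the mark is not made, so HIF-1 alpha enters the nucleus and switches on genes for vessel growth, glucose uptake, glycolysis and mitochondrial shutdown. Because this control acts on the protein, the mRNA of HIF1A is a poor reading of HIF activity, and target genes such as CA9, VEGFA and SLC2A1 are read instead. Cancer cells also run glycolysis at high rates with oxygen present, and triple-negative tumours are known for both features. Glucose enters by SLC2A1, is phosphorylated by the hexokinases HK1 and HK2, split by the aldolases and carried to lactate by LDHA.

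No member differed between groups at an adjusted p below 0.05 in either genome by edgeR's quasi-likelihood test. The test called few genes of any kind. It called 4.41% of all human genes for MC + Chemo against CTRL and 0% in the other human comparisons, and at most 0.492% of all murine genes. DESeq2 called HK1 for Chemo, ALDOA for MC + Chemo and Aldoa over the 5 groups, and its shares over all genes are given with those counts below. Several of the larger differences shrank when 1 tumour was left out. Total counts were 7796231 to 17621273 human and 3664056 to 9892470 murine per library, and the human share was 47.8% in MC 41 to 74.0% in MC + Chemo 25. The human share did not differ from CTRL beyond the spread between mice in an exact two-sided permutation test (Chemo p = 0.960, MC p = 0.429, MC + Chemo p = 0.614, Lean p = 0.457). A set of 3 libraries stood apart in the human reads. CDH1, the epithelial cadherin, was at 0.262 CPM (counts scaled to a fixed library total) in CTRL 17, 30.9 in CTRL 44 and 62.5 in Lean 24, against 157 to 430 in the other 21. EPCAM, another epithelial surface protein, was at 7.08, 54.5 and 119 CPM in the same order, against 229 to 481 elsewhere. VIM, the mesenchymal filament for which this line is known, ran the other way at 6897, 4964 and 2427 CPM, against 435 to 2053. The parental line is known to lack CDH1, and only CTRL 17 was near 0 for it. The other libraries go against their label in that gene, CTRL 44 and Lean 24 less so than the 21. Among further markers of luminal breast cells, ESR1 (0.256 to 8.27 CPM) and FOXA1 (0 to 2.46 CPM) were low in all 24. ERBB2 (18.4 to 83.4 CPM) and GATA3 (9.70 to 69.9 CPM) were higher, and KRT19 was at 590 to 3448 CPM. Of the 4 CTRL tumours 2 were therefore unlike the rest, and the medians over members and several of the larger differences from CTRL are also given without 1 or both of them.

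CTRL 17 set much of the range of the tumour-cell members. It had the highest normalized count of all 24 libraries for 14 of the 31 human members (ADM, NDRG1, BNIP3, PDK1, SLC2A1, LDHA, PGK1, ENO1, PFKFB3, HK1, HK2, GPI, ANGPTL4 and KDM3A) and the lowest for HIF1A. Over all human genes tested it was highest for 11.7%. CTRL 44 was the lowest library for 8 members, among them VEGFA, ADM, SLC2A1 and SLC2A3, against 11.1% of all genes, and the highest for GAPDH and PKM. So the 2 CTRL tumours with little CDH1 stood at opposite ends of the HIF targets. The mean deviation of the HIF targets from their average over libraries, on the log2 scale, was 0.78 in CTRL 17 and -0.64 in CTRL 44. On the host side CTRL 17 was highest for Adm, Egln3, Ankrd37, Eno1, P4ha1 and Ddit4, 6 of 22 members against 5.84% of all murine genes, and its murine HIF targets deviated by 0.91. CTRL 17 also had the lowest summed host markers of endothelium (102 CPM, next lowest 184), neutrophils (66.0, next 102) and red cells (123, next 338), the lowest of adipocytes (next lowest 181) and the highest of fibroblasts (27566, next highest 22082). Whether these marker levels have a part in its high HIF targets was not tested.

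**Figure D1:**
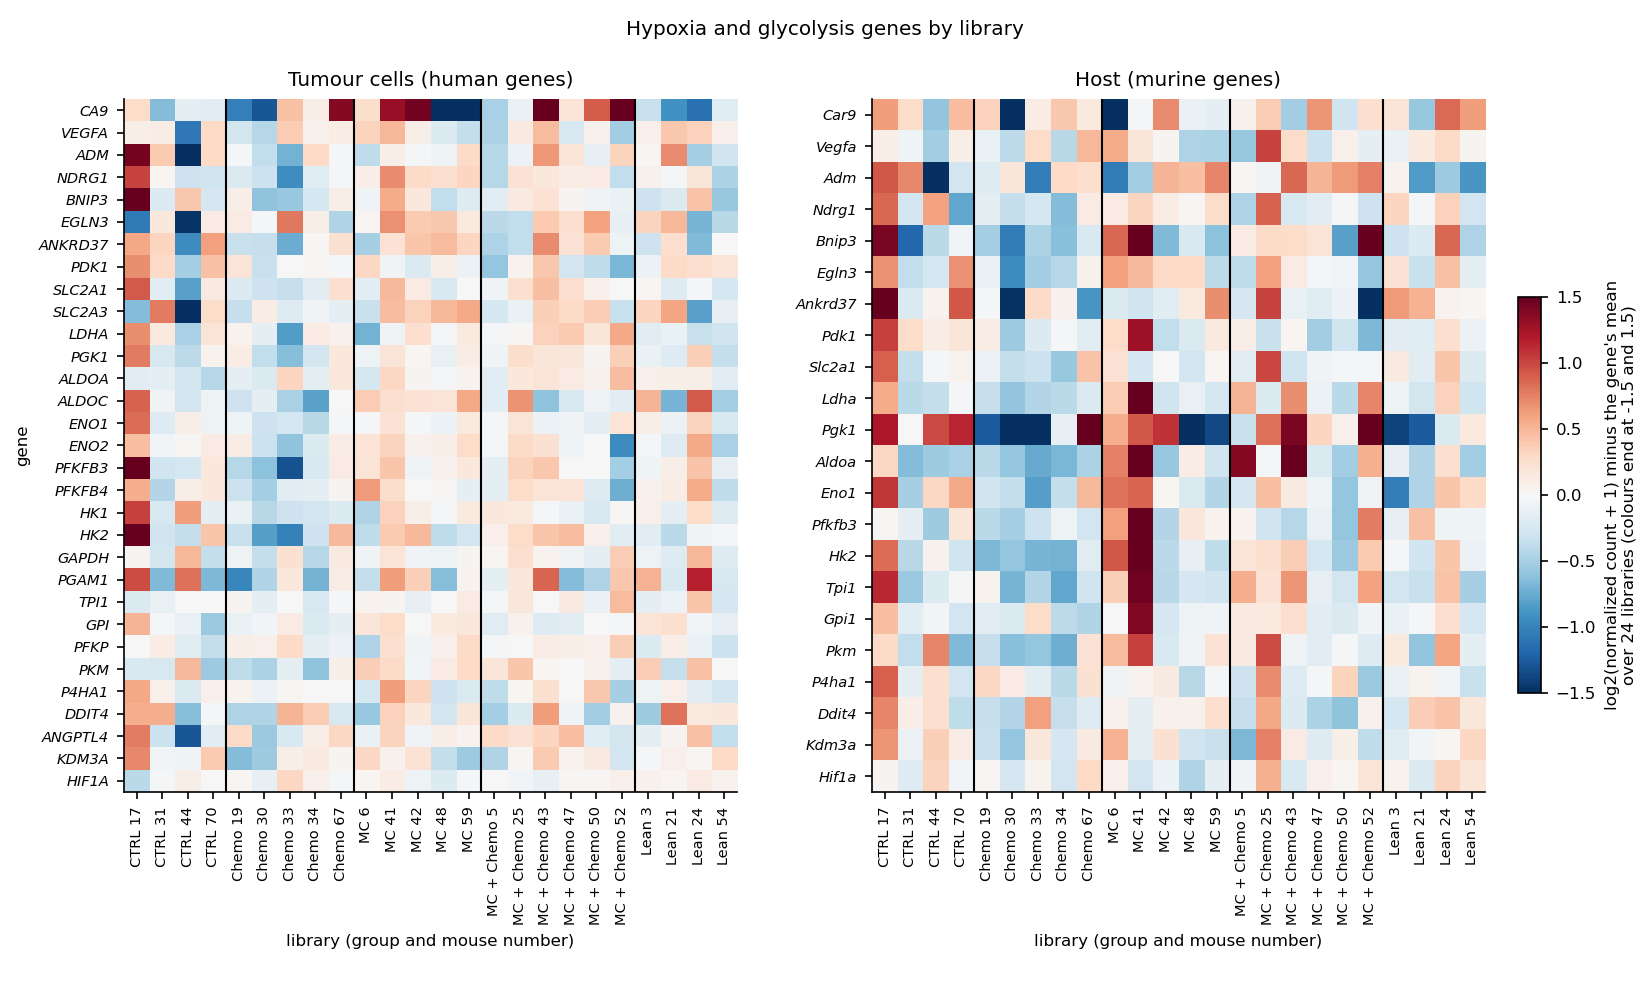
Each column is a library and each row a gene, 31 human members on the left and 22 murine members on the right, and the colour is the log2 of the normalized count plus 1 minus the gene's mean over 24 libraries. CTRL 17 is dark for many rows on both sides, and MC 41 is dark for the murine glycolytic rows.

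Some pairs of same-name genes can share reads across the 2 genomes, since human and murine mRNAs are alike and the reads are 50 bases long. If reads of one species are partly counted in both tables, the human share of a pair stays fixed while the human share of the library moves. VEGFA and Vegfa did this: the human share of the pair was 51.9% to 54.1% over 24 libraries whose overall human share ran from 47.8% to 74.0%. The ratio of the VEGFA pair varied no more than counting error allows (chi-square per degree of freedom 0.636, where 9.28% of 10202 pairs were below 2 and the median was 8.21). The cause of the fixed ratio was not tested, and the values of VEGFA and Vegfa below are not taken as separate tumour and host levels. KDM3A and Kdm3a came next, with a ratio of 3.42 per degree of freedom on the same measure, and HIF1A and Hif1a kept a narrow share of 51.8% to 63.9%. A further measure was the slope of a pair's log2 human to murine ratio on that of the library totals. A pair with a fixed share has a flat slope. The median slope was 0.60 over the 22 member pairs, beside 0.90 over all pairs. Slopes were -0.008 for SLC2A1, 0.05 for DDIT4, 0.09 for EGLN3, 0.10 for P4HA1 and 0.20 for NDRG1. Without MC 41 they were 0.36, 0.21, -0.008, 0.42 and 0.42. The part of shared reads in these pairs was not tested. At the other end, the human share of the HK2 pair ran from 17.5% to 68.0% and that of the ALDOA pair from 28.9% to 83.6%. PGK1 and ENO1 held 99.5% of their pairs' counts, so a small leak of human reads would fill the murine counts of Pgk1 (median 21.5 raw counts a library) and Eno1. Car9 and Ankrd37 were low too, at medians of 11.5 and 16 raw counts. GAPDH, ENO1, PGK1, PGAM1, TPI1, LDHA, ALDOA and PKM belong to families with near-identical pseudogene copies, and their counts are uncertain for that reason as well.

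**Figure D2:**
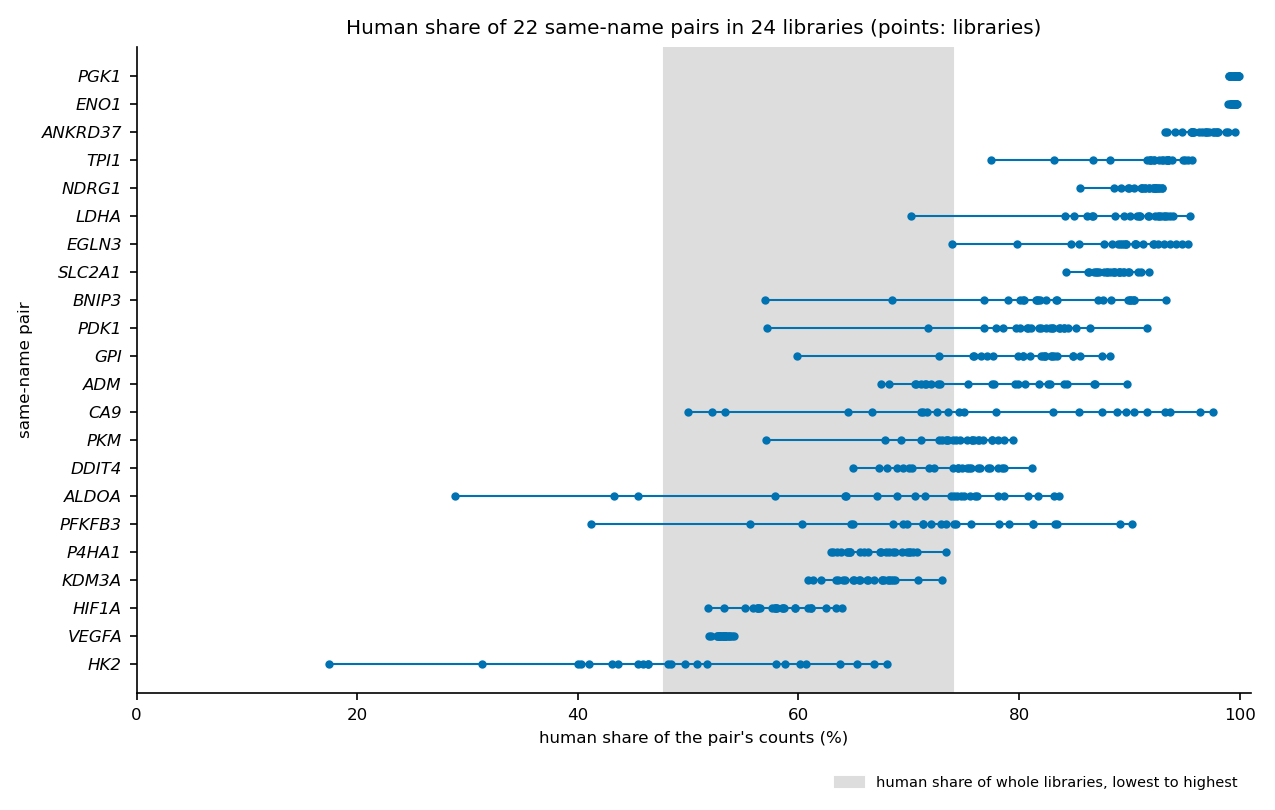
For each of 22 same-name pairs, points give the human percent of the pair's counts in each of 24 libraries, with a line from lowest to highest, and the grey band is the human percent of whole libraries. The points of VEGFA lie within 51.9% to 54.1%, while those of HK2 and ALDOA spread widely.

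Among the regulators, HIF1A was among the steadiest genes in the tumour cells. Its spread within groups was 0.14 on the log2 scale (SD), lower than all but 1.58% of human genes, whose median was 0.37. HIF1A counted 1084, 1398, 1519 and 1442 in CTRL 17, 31, 44 and 70, and 1458, 1316, 1782, 1506 and 1409.6 in Chemo 19, 30, 33, 34 and 67. For HIF1A the counts were 1461, 1553, 1363, 1241 and 1403 in MC 6, 41, 42, 48 and 59, and 1499, 1459, 1557 and 1489 in Lean 3, 21, 24 and 54. In MC + Chemo the lowest, median and highest HIF1A counts were 1313, 1446 and 1506. The HIF1A groups overlapped throughout, and its differences from CTRL were between 0.03 (MC) and 0.13 (Lean) on the log2 scale. EGLN3, the prolyl hydroxylase that is itself a HIF target, was lowest in CTRL 44 (329) and CTRL 17 (437), and its MC counts of 936, 1469, 1199.9, 1207 and 1013 gave a log2 difference of 0.74 ± 0.32 (SE, adjusted p = 0.394), or 0.22 without CTRL 17 and CTRL 44. KDM3A, a histone demethylase induced by HIF, counted 747 ± 202 in CTRL (SD, n = 4) and 552 ± 135 in Chemo (SD, n = 5), a log2 difference of -0.45 ± 0.21 (SE, adjusted p = 0.243), or -0.27 without CTRL 17.

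CA9, the surface carbonic anhydrase used as a marker of hypoxic tumour, was the most variable human member, with a within-group SD of 1.05 on the log2 scale, above 95.8% of genes. CA9 counted 54.7, 28.2, 40.6 and 40.0 in CTRL 17, 31, 44 and 70, and 21.5, 17.9, 61.1, 48.1 and 118 in Chemo 19, 30, 33, 34 and 67. CA9 stood at 54.1, 113, 124, 12.4 and 10.9 in MC 6, 41, 42, 48 and 59, and 35.3, 23.4, 20.1 and 39.3 in Lean 3, 21, 24 and 54. CA9 had a lowest, median and highest count of 31.8, 68.6 and 210.3 in MC + Chemo. Every group except CTRL and Lean held both low and high CA9 tumours, and the log2 difference of MC + Chemo from CTRL was 1.18 ± 0.62 (SE, adjusted p = 0.254). VEGFA, the vessel growth factor whose counts kept a fixed ratio to those of its murine namesake, was even across groups. VEGFA counted 2819.9, 2868, 1256 and 3250.2 in CTRL 17, 31, 44 and 70, and 2189, 1974, 3459, 2773 and 2861 in Chemo 19, 30, 33, 34 and 67. Normalized VEGFA counts were 3349, 3732, 2806, 2296 and 2069 in MC 6, 41, 42, 48 and 59, and 2789, 3510.2, 3353 and 2798 in Lean 3, 21, 24 and 54. The MC + Chemo libraries gave 1845, 2502 and 3680.4 as lowest, median and highest VEGFA counts. Only CTRL 44 was far from the others, at 1256 against a next lowest of 1845. The vasodilator peptide gene ADM ranged from 559 in CTRL 44 to 4754 in CTRL 17, both CTRL tumours. ANGPTL4, a secreted lipoprotein lipase inhibitor, spanned 298 to 1241 in the same 2 tumours. None of these 4 genes reached an unadjusted p below 0.05 against CTRL in any group.

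The stress and mitochondrial targets were lower than CTRL in 6 of 6 genes for Chemo and for MC + Chemo and in 5 of 6 for MC and Lean, with medians of -0.40, -0.24, -0.13 and -0.27 on the log2 scale, and no gene passed the adjusted test. Of all human genes 46.5% (MC) to 47.5% (Chemo and Lean) were higher than in CTRL. These medians were not refitted without CTRL 17. BNIP3, a HIF target that drives removal of mitochondria, was the clearest of the 6 genes. BNIP3 counted 4441, 1141, 1741 and 1099 in CTRL 17, 31, 44 and 70, and 1411, 863, 886, 1095 and 1408 in Chemo 19, 30, 33, 34 and 67. The counts of BNIP3 were 1267, 1938, 1466, 1018 and 1148 in MC 6, 41, 42, 48 and 59, and 1059, 1132, 1769.7 and 884 in Lean 3, 21, 24 and 54. Across the 6 MC + Chemo libraries the lowest, median and highest BNIP3 counts were 1181, 1312 and 1521. CTRL 17 was far above every other BNIP3 value, the next highest being 1938 in MC 41, and the remaining CTRL tumours lay inside the MC and Lean ranges. The BNIP3 difference of Chemo from CTRL was -0.91 ± 0.31 on the log2 scale (SE, adjusted p = 0.122), -0.25 without CTRL 17 and 0.0066 without CTRL 17 and CTRL 44. NDRG1, a stress gene strongly induced by HIF, counted 37378, 18850.3, 14902 and 15022 in CTRL, 15863, 14732, 9645, 16289 and 18097 in Chemo and 19816, 30026, 22590.5, 21705 and 23069 in MC. Its Chemo difference was -0.54 ± 0.23 (log2, SE, adjusted p = 0.208), or -0.14 without CTRL 17. PDK1, the kinase that keeps pyruvate out of mitochondria, differed in MC + Chemo by -0.51 ± 0.20 (log2, SE, adjusted p = 0.127). ANKRD37, a HIF target of little known function, P4HA1, a collagen prolyl hydroxylase, and DDIT4, an inhibitor of mTOR signalling, had log2 differences between -0.48 (ANKRD37, Chemo) and 0.04 (DDIT4, Lean).

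The human members for glucose uptake were SLC2A1 and SLC2A3, which encode the constitutive and neuronal-type glucose transporters. SLC2A1 counted 6629, 3117, 1983 and 3851 in CTRL 17, 31, 44 and 70, and 3025, 2818, 2746, 3113 and 4145 in Chemo 19, 30, 33, 34 and 67. For SLC2A1 the counts were 3108, 4887, 3811, 2984 and 3517 in MC 6, 41, 42, 48 and 59, and 3562, 3053, 3428 and 2921 in Lean 3, 21, 24 and 54. In MC + Chemo the lowest, median and highest SLC2A1 counts were 3375, 3916 and 4768. CTRL 17 and CTRL 44 were the highest and lowest of all libraries for SLC2A1, and the other CTRL tumours lay within the range of the treated groups. SLC2A3 ran differently, from 1171 in CTRL 44 to 6233 in CTRL 31, with CTRL 17 at 2319.

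In upper glycolysis, 6 of 9 human enzymes were lower in Chemo than in CTRL with a median of -0.35 on the log2 scale, and HK1 had the lowest p of all human members. Of all human genes 47.5% were higher in Chemo, and the median of -0.35 was not refitted without CTRL 17. HK1 counted 1591, 663, 1215 and 707 in CTRL 17, 31, 44 and 70, and 732, 589, 629.8, 642 and 680.1 in Chemo 19, 30, 33, 34 and 67. HK1 stood at 575, 997, 830.3, 766 and 865 in MC 6, 41, 42, 48 and 59, and 825, 706, 948 and 685 in Lean 3, 21, 24 and 54. HK1 had a lowest, median and highest count of 666, 782 and 874 in MC + Chemo. HK1 in all 5 Chemo tumours lay below CTRL 17 and CTRL 44 but overlapped CTRL 31 and CTRL 70. The difference was -0.69 ± 0.20 on the log2 scale (SE, edgeR adjusted p = 0.0858), -0.42 without CTRL 17 and -0.08 without CTRL 17 and CTRL 44, while DESeq2 gave an adjusted p of 0.0407. HK2 counted 1435, 312, 299 and 512 in CTRL 17, 31, 44 and 70, and 305, 216, 190.0, 309 and 538 in Chemo 19, 30, 33, 34 and 67. Normalized HK2 counts were 294, 504, 537, 295 and 315 in MC 6, 41, 42, 48 and 59, and 345, 290.0, 371 and 377 in Lean 3, 21, 24 and 54. The MC + Chemo libraries gave 344, 436 and 529 as lowest, median and highest HK2 counts. HK2, the hexokinase that HIF induces, was again far higher in CTRL 17 than in any other tumour, and its Chemo difference of -1.04 ± 0.35 (log2, SE, adjusted p = 0.122) was -0.28 without that tumour. PFKFB3, which makes the activator of phosphofructokinase, counted 3233, 839, 855 and 1146 in CTRL and 767, 669.5, 415, 879 and 1119.5 in Chemo, a difference of -0.99 ± 0.31 (log2, SE, adjusted p = 0.104) that was -0.32 without CTRL 17. ALDOA, the muscle-type aldolase, went the other way, at 3626, 3673, 3359 and 3026 in CTRL and a lowest, median and highest of 3635, 4486 and 5599.5 in MC + Chemo, where only MC + Chemo 5 fell within the CTRL range. Its log2 difference was 0.38 ± 0.13 (SE, adjusted p = 0.0857 by edgeR and 0.0419 by DESeq2), and 0.44 without CTRL 17 and CTRL 44. GPI, PFKP and TPI1, the isomerase, phosphofructokinase and triosephosphate steps, stayed within -0.10 to 0.19 of CTRL on the log2 scale in the MC + Chemo group, and ALDOC and PFKFB4 differed from CTRL by -0.54 and -0.35 in Chemo.

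Lower glycolysis was lower than CTRL in 7 of 7 human genes for Chemo, with a median of -0.32 on the log2 scale, from -0.66 (PGAM1, phosphoglycerate mutase) to -0.11 (GAPDH), and in 3 of 7 for MC + Chemo. Of all human genes 47.5% were higher for Chemo and 47.3% for MC + Chemo. The median of -0.32 was not refitted without CTRL 17, the highest library for LDHA, PGK1 and ENO1, or CTRL 44, the highest for GAPDH and PKM. LDHA is the enzyme that turns pyruvate into lactate. LDHA counted 13590.0, 9289.8, 5973 and 9677 in CTRL 17, 31, 44 and 70, and 8746, 7627, 4707, 9128 and 8751 in Chemo 19, 30, 33, 34 and 67. The counts of LDHA were 5141, 8073, 10022, 8269 and 9262 in MC 6, 41, 42, 48 and 59, and 7471, 7823, 6662 and 6822 in Lean 3, 21, 24 and 54. Across the 6 MC + Chemo libraries the lowest, median and highest LDHA counts were 8332, 10099 and 12409. CTRL 17 was the highest LDHA library and Chemo 33 the lowest. Lean spanned the least and lay wholly below MC + Chemo, a pair outside the comparisons made, while the groups that were compared overlapped. PKM, pyruvate kinase, counted 6608, 6168, 7758, 5629.7 and 9093 in Chemo and 7749, 8894 and 11437 (lowest, median, highest) in MC + Chemo, a log2 difference of 0.38 ± 0.18 (SE, adjusted p = 0.428) in which CTRL has no part. ENO1, the enolase, was at 21713 ± 7744 in CTRL (SD, n = 4) and 16086 ± 1856 in Chemo (SD, n = 5), a log2 difference of -0.45 ± 0.17 (SE) that was -0.17 without CTRL 17. PGK1, phosphoglycerate kinase, and ENO2, the neuronal enolase, differed in Chemo by -0.31 and -0.32 on the log2 scale.

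**Figure D3:**
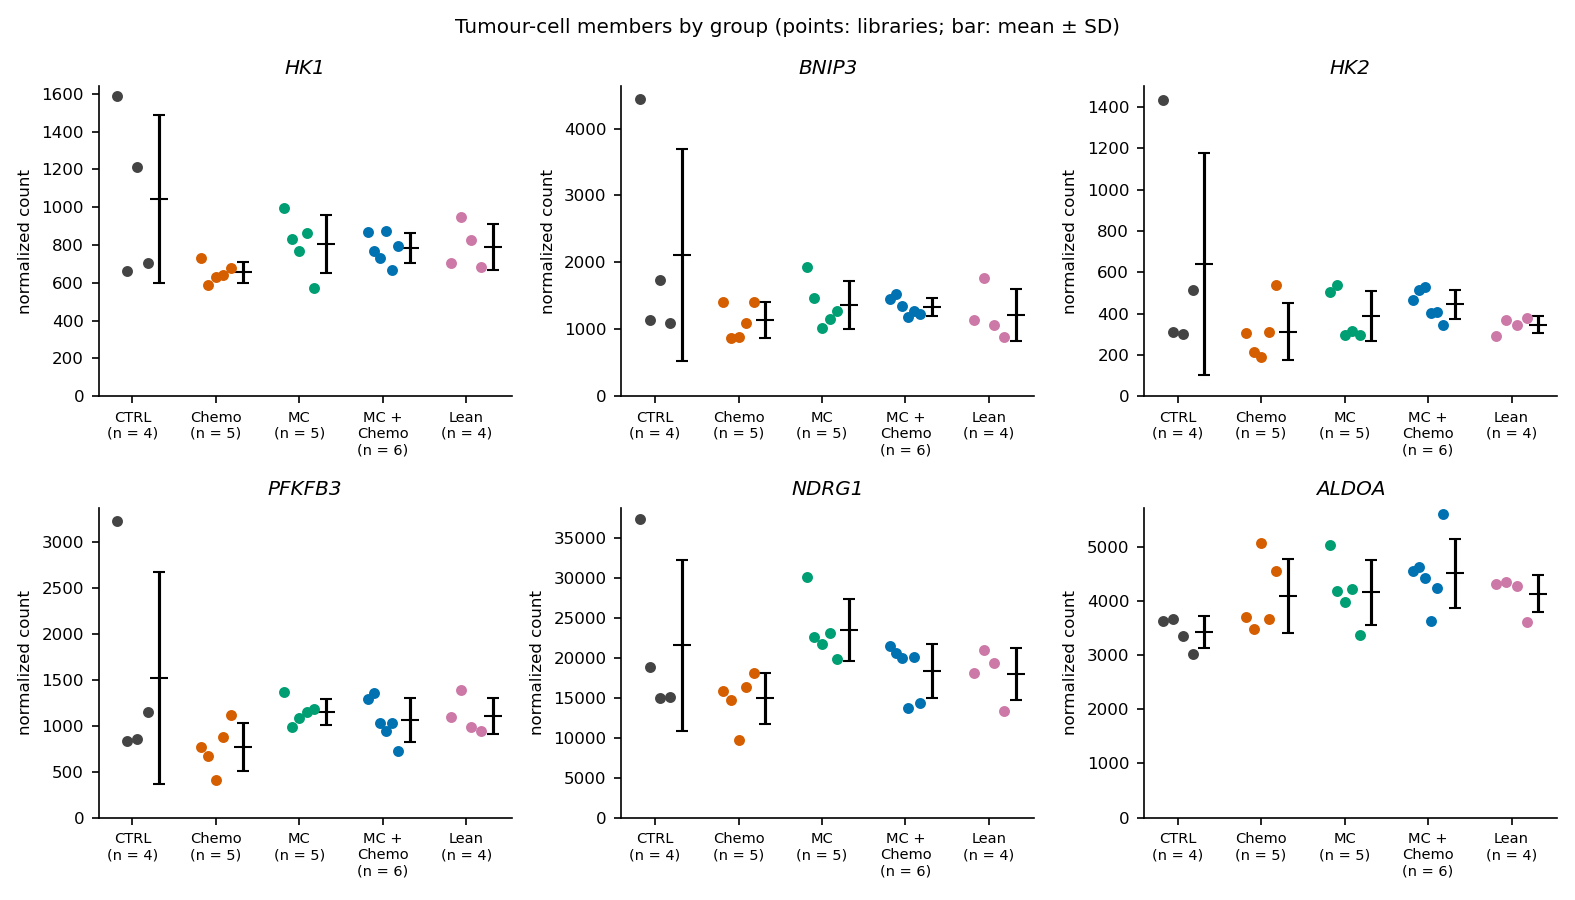
Normalized counts of 6 human members by group, with a point per library and a bar for the mean and SD. For HK1, BNIP3, HK2, PFKFB3 and NDRG1 the highest CTRL point is CTRL 17. In HK1 and BNIP3 CTRL 44 also lies above all Chemo points, and CTRL 31 and CTRL 70 lie within the Chemo range.

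Over the 31 tumour-cell members, edgeR's quasi-likelihood test called 0 of 31 in each comparison. For Chemo against CTRL, 7 of 31 (22.6%) had an unadjusted p below 0.05, beside 19.1% of all 16588 human genes and 0% called. All 7 were lower (NDRG1, BNIP3, ENO1, PFKFB3, HK1, HK2 and KDM3A), beside 10.9% of genes lower at that threshold, and the median over members was -0.31 on the log2 scale, or -0.11 without CTRL 17. For MC the count was 2 of 31 (6.45%) beside 11.6% of all genes and 0% called, with a median of -0.01. For MC + Chemo it was 4 of 31 (12.9%: BNIP3, PDK1 and HK1 lower, ALDOA higher) beside 23.7% of all genes at that threshold and 4.41% called, with a median of -0.15. For Lean it was 2 of 31 (6.45%: BNIP3 and HK2) beside 7.08% and 0% called, with a median of -0.13. With both directions counted, the members' share was near or below that of all genes in each of these. For Chemo the share that was lower was 22.6% of members beside 10.9% of all genes. Without CTRL 17 and CTRL 44 edgeR called 0 members, with medians of -0.10 for Chemo, 0.16 for MC, 0.11 for MC + Chemo and 0.04 for Lean. DESeq2 called 1 member for Chemo (HK1), beside 3.56% of all 18872 human genes in its fit, 1 for MC + Chemo (ALDOA), beside 7.93%, and 0 for MC and Lean. These 4 comparisons share the CTRL tumours. MC + Chemo against Chemo, which does not use them, had 1 of 31 (3.23%, PKM) beside 11% and 0% called, with 0 called by DESeq2. The chemotherapy main effect, over diets with and without MC, had 6 of 31 (19.4%: NDRG1, BNIP3, ALDOC, ENO1, PFKFB3 and HK1, all lower) beside 18.5%, 10.4% lower, and 0% called, and 0 by DESeq2. Without CTRL 17 it had 0 of 31 below 0.05, beside 13.4% of all genes, with PFKFB3 at -0.22, BNIP3 at -0.15 and ENO1 at -0.10 on the log2 scale and the median over members moving from -0.17 to -0.05. The interaction of MC with chemotherapy had 5 of 31 (16.1%: BNIP3, LDHA, PFKFB3, HK1 and HK2, all with a higher value than the sum of both effects) beside 10.3%, 6.19% higher, and 0% called, with a lowest adjusted p of 0.474 and no DESeq2 run. High CTRL values raise this interaction, and CTRL 17 was the highest of 24 libraries for all 5 of these genes. The interaction was not refitted without CTRL 17. Jointly over the 5 groups, 1 of 31 (3.23%, HK1) was below 0.05, beside 15.5% and 0% called, and DESeq2 called 0. No human member lay wholly above or below the group it was compared with. Of all human genes, the shares wholly above and wholly below were 1.91% and 1.34% for Chemo, 0.741% and 0.735% for MC, 2.63% and 2.63% for MC + Chemo, 1.13% and 1.08% for Lean, and 0.428% and 1.44% for MC + Chemo against Chemo.

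On the host side Hif1a, the murine HIF-1 alpha gene, was among the steadier genes. Hif1a counted 1062, 906, 1303 and 1004 in CTRL 17, 31, 44 and 70, and 1048, 869.9, 1075, 843 and 1267 in Chemo 19, 30, 33, 34 and 67. For Hif1a the counts were 1089, 848, 971, 755 and 939 in MC 6, 41, 42, 48 and 59, and 1073, 885, 1301 and 1175 in Lean 3, 21, 24 and 54. In MC + Chemo the lowest, median and highest Hif1a counts were 881, 1072 and 1495. Hif1a had a within-group SD of 0.22 on the log2 scale, below all but 7.49% of murine genes, and its groups overlapped, with MC + Chemo 25 highest. Egln3 was at 162, 77.2, 83.3 and 161 in CTRL and 93.6, 51.2, 69.6, 74.0 and 105 in Chemo, a log2 difference of -0.62 ± 0.27 (SE, adjusted p = 0.931), and Kdm3a differed by -0.42. Among secreted and surface targets, Car9 was too low to rank groups. Car9 counted 16.3, 12.6, 6.41 and 14.5 in CTRL 17, 31, 44 and 70, and 13.2, 2.33, 11.1, 13.8 and 11.4 in Chemo 19, 30, 33, 34 and 67. Car9 stood at 1.59, 9.98, 17.3, 9.47 and 9.06 in MC 6, 41, 42, 48 and 59, and 11.7, 6.55, 19.2 and 16.3 in Lean 3, 21, 24 and 54. Car9 had a lowest, median and highest count of 6.76, 11.5 and 16.7 in MC + Chemo. All Car9 ranges overlapped, from 1.59 to 19.2 counts. Vegfa counted 2519, 2246, 1641 and 2507 in CTRL 17, 31, 44 and 70, and 2199, 1791, 2842, 1765 and 3323 in Chemo 19, 30, 33, 34 and 67. Normalized Vegfa counts were 3453, 2662, 2415, 1703 and 1687 in MC 6, 41, 42, 48 and 59, and 2195, 2596, 2873 and 2427 in Lean 3, 21, 24 and 54. The MC + Chemo libraries gave 1592, 2319.5 and 4762 as lowest, median and highest Vegfa counts. Vegfa, in its fixed ratio to VEGFA, was highest in MC + Chemo 25, and its groups overlapped. Adm ranged from 173 in CTRL 44 to 949.7 in CTRL 17, the same 2 tumours that bounded human ADM.

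The stress and mitochondrial targets of the host were lower in Chemo than in CTRL in 6 of 6 genes, with a median of -0.53 on the log2 scale, and none passed the adjusted test. Of all murine genes 50.5% were higher in Chemo, and the median of -0.53 was not refitted without CTRL 17. Over the 5 comparisons between groups that were examined for overlap, Pdk1 was the only member of either genome with groups that did not overlap, in MC + Chemo against CTRL. Pdk1 counted 175, 103, 92.3 and 96.8 in CTRL and had a lowest, median and highest of 52.8, 68.2 and 91.5 in MC + Chemo, a log2 difference of -0.72 ± 0.26 (SE, adjusted p = 0.218), or -0.47 without CTRL 17 and -0.51 without CTRL 17 and CTRL 44. The gap was narrow, from 91.5 in MC + Chemo 5 to 92.3 in CTRL 44, and 1.63% of all murine genes lay wholly below CTRL in that comparison. Ankrd37, at 46.1, 12.6, 15.4 and 28.9 in CTRL and 14.4, 4.65, 18.2, 15.5 and 7.60 in Chemo, had the largest Chemo difference, -1.08 ± 0.47 (log2, SE, adjusted p = 0.931), or -0.66 without CTRL 17. Bnip3 split within groups: CTRL 17 (661), MC 41 (1129), MC 6 (449), MC + Chemo 52 (738) and Lean 24 (449) stood above the remaining libraries, which were at 108 to 301. Ndrg1, P4ha1 and Ddit4 differed from CTRL in Chemo by -0.47, -0.21 and -0.30 on the log2 scale.

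Host glycolysis was dominated by MC 41. Aldoa counted 2118, 1091, 1183 and 1222 in CTRL 17, 31, 44 and 70, and 1291, 1142, 1011, 1063 and 1232 in Chemo 19, 30, 33, 34 and 67. The counts of Aldoa were 2884, 9565, 1156, 1851 and 1396 in MC 6, 41, 42, 48 and 59, and 1567, 1250.0, 2028 and 1190.2 in Lean 3, 21, 24 and 54. Across the 6 MC + Chemo libraries the lowest, median and highest Aldoa counts were 1190.3, 2081 and 4799. Aldoa in MC 41 was the highest of 24 libraries, followed by MC + Chemo 43 and MC + Chemo 5, and all other libraries were between 1011 and 2884. The MC difference was 1.26 ± 0.50 on the log2 scale (SE, edgeR adjusted p = 0.261), and 0.38 without MC 41. DESeq2 called Aldoa over the 5 groups (adjusted p = 0.0399), where edgeR gave 0.203. Pfkfb3 counted 369, 329, 252 and 414 in CTRL 17, 31, 44 and 70, and 276, 258, 295, 347 and 300.2 in Chemo 19, 30, 33, 34 and 67. For Pfkfb3 the counts were 560.4, 1508, 269.9, 412 and 378 in MC 6, 41, 42, 48 and 59, and 336, 497, 349.7 and 349 in Lean 3, 21, 24 and 54. In MC + Chemo the lowest, median and highest Pfkfb3 counts were 244, 318 and 621. The Pfkfb3 difference for MC was 0.87 ± 0.36 (log2, SE, adjusted p = 0.289), or 0.25 without MC 41. Hk2 counted 711, 296, 414 and 321 in CTRL 17, 31, 44 and 70, and 247, 264, 244, 242 and 355 in Chemo 19, 30, 33, 34 and 67. Hk2 stood at 754, 1836, 299.7, 365 and 303 in MC 6, 41, 42, 48 and 59, and 393, 321, 531 and 371 in Lean 3, 21, 24 and 54. Hk2 had a lowest, median and highest count of 272, 461 and 521 in MC + Chemo. Hk2 in the 5 Chemo libraries was at or below 355, and CTRL 31 and CTRL 70 lay inside the Chemo range while CTRL 17 and CTRL 44 lay above it. MC 41 was highest for 9 of 22 host members (Bnip3, Pdk1, Ldha, Aldoa, Pfkfb3, Hk2, Tpi1, Gpi1 and Pkm) against 18.5% of all murine genes.

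Skeletal muscle genes were highest in the libraries with the highest Aldoa, while Hk2 and Pfkfb3 did not rank in that way. The summed level of 12 murine muscle markers was 21.1 to 28.4 CPM in CTRL, 22.9 to 504 in Chemo, 17.7 to 4555 in MC, 19.2 to 12521 in MC + Chemo and 24.7 to 136 in Lean, and all 12 markers were detected. The highest sums were in MC + Chemo 43 (12521), MC + Chemo 5 (7940) and MC 41 (4555), the 3 libraries with the highest Aldoa, which is the aldolase of muscle. Of those 3, MC 41 had the lowest muscle sum and the highest Aldoa, Hk2 and Pfkfb3. The marker sums are scaled to library totals, while the member counts are divided by a size factor per library. MC 41 had 9892470 murine counts at a size factor of 1.10, MC + Chemo 5 had 7190836 at 1.31 and MC + Chemo 43 had 6388984 at 1.18. Marker sums in MC 41 are therefore low relative to its member counts, and the sizes of these gaps cannot be compared directly. After MC 41, Hk2 was highest in MC 6 (754), where the muscle sum was 30.1 CPM. The next highest Pfkfb3 was in MC + Chemo 52 (621), where the muscle sum was 67.4 CPM. The highest summed adipocyte markers were 17490.1 CPM in MC + Chemo 52 and 9834 in MC 41, while no library exceeded 4238 in Lean, 1779 in Chemo and 1679 in CTRL. With both marker sums as covariates, the log2 difference of MC from CTRL was 0.25 for Aldoa and 0.23 for Pfkfb3, and 0 of 22 host members had an unadjusted p below 0.05, beside 4.92% of all murine genes in the same fit. For MC + Chemo against Chemo the Aldoa difference was 0.43 and the Ldha difference 0.25 in that fit, beside 1.21 and 0.66 without the covariates. In bulk tissue, fewer or more cells of a type and less or more RNA per cell cannot be told apart.

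Slc2a1 counted 855, 357, 448 and 473 in CTRL 17, 31, 44 and 70, and 429.7, 357, 365, 309 and 615 in Chemo 19, 30, 33, 34 and 67. Normalized Slc2a1 counts were 532, 384, 458, 374 and 467 in MC 6, 41, 42, 48 and 59, and 501, 406, 610.3 and 395 in Lean 3, 21, 24 and 54. The MC + Chemo libraries gave 371, 445 and 919 as lowest, median and highest Slc2a1 counts. Slc2a1, the host glucose transporter, was highest in MC + Chemo 25 and CTRL 17, and its groups overlapped. Ldha counted 1289.6, 664, 686 and 867 in CTRL 17, 31, 44 and 70, and 688, 581, 645, 661 and 754 in Chemo 19, 30, 33, 34 and 67. The counts of Ldha were 1138, 2636, 715, 809 and 728 in MC 6, 41, 42, 48 and 59, and 835, 726, 1119 and 710.1 in Lean 3, 21, 24 and 54. Across the 6 MC + Chemo libraries the lowest, median and highest Ldha counts were 663, 1038 and 1462. Ldha in MC + Chemo was above Chemo by 0.66 ± 0.30 on the log2 scale (SE, adjusted p = 0.368), with 5 of 6 MC + Chemo libraries above every Chemo library. Tpi1 and Gpi1 followed MC 41, at 996 and 1137 there. Pgk1 was the most variable host member, with a within-group SD of 1.11 on the log2 scale at counts of 2.02 to 83.6. Eno1 and Pkm differed from CTRL in Chemo by -0.67 ± 0.33 and -0.46 ± 0.30 (log2, SE).

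**Figure D4:**
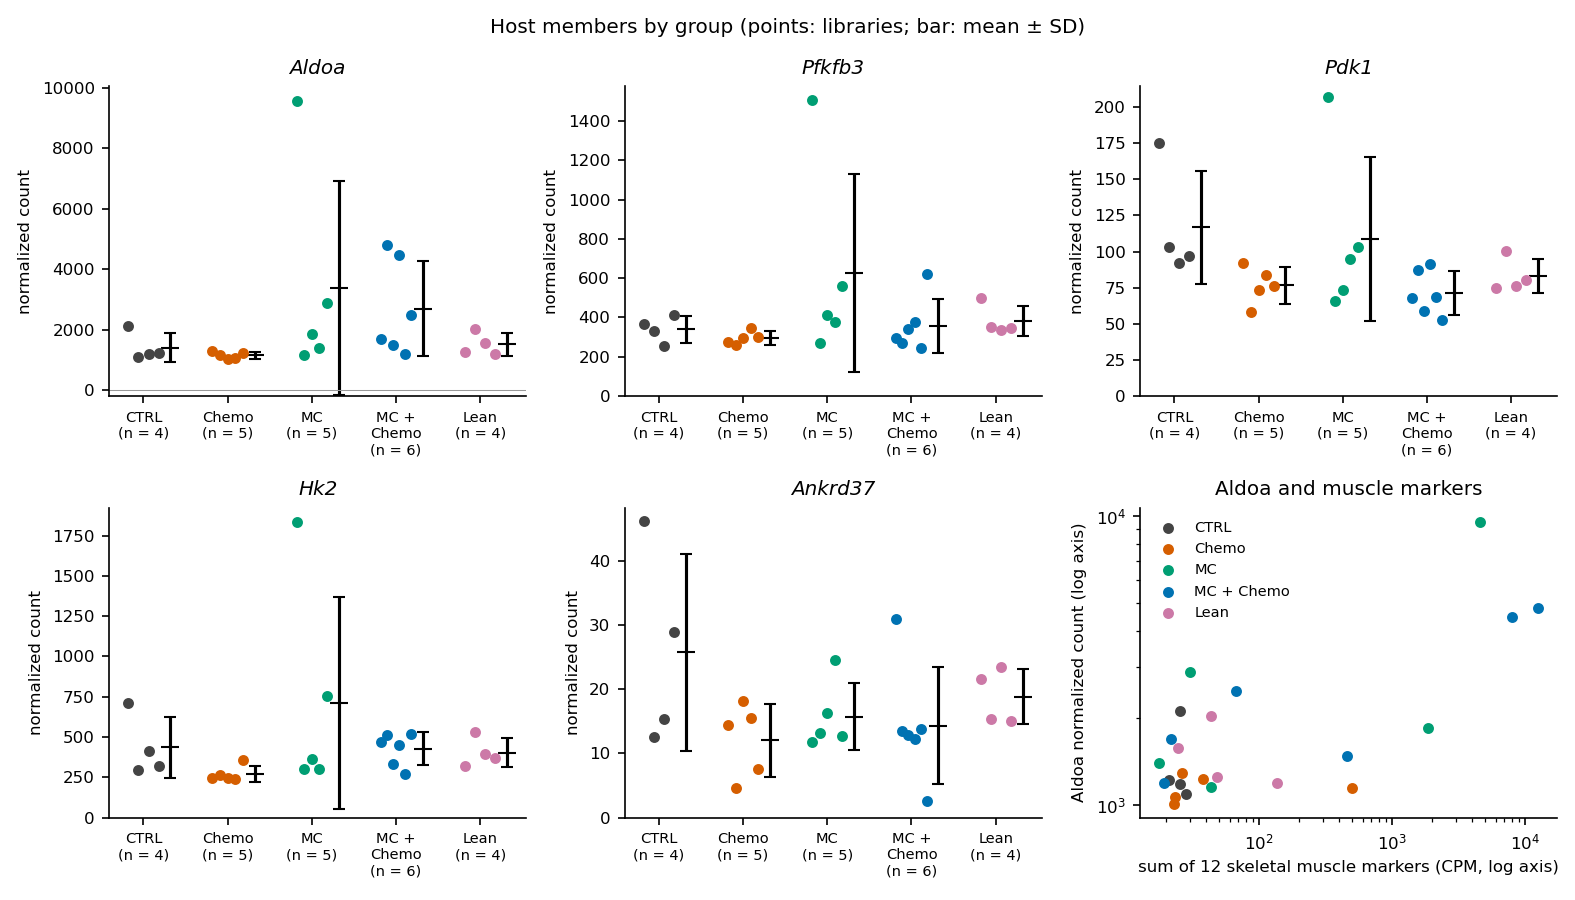
Normalized counts of 5 murine members by group, with a point per library and a bar for the mean and SD, and, in the last panel, Aldoa against the sum of 12 skeletal muscle markers in CPM, both on log axes. MC 41 is the highest point for Aldoa, Pfkfb3, Pdk1 and Hk2, and the 3 libraries with the highest Aldoa have the 3 highest marker sums.

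Over the 22 host members, edgeR called 0 of 22 in each comparison. For Chemo against CTRL, 3 of 22 (13.6%: Egln3, Ankrd37 and Pdk1, all lower) had an unadjusted p below 0.05, beside 5.22% of all 15029 murine genes, 2.82% lower, and 0% called. In that comparison 1 of 22 members was higher (Vegfa) and the rest lower, with a median of -0.41 on the log2 scale against a median close to 0 over all genes, and the median was -0.15 without CTRL 17. For MC the count was 2 of 22 (9.09%: Aldoa and Pfkfb3, higher) beside 13.2%, 9.2% higher, and 0% called, with a median of -0.07. For MC + Chemo it was 2 of 22 (9.09%: Ankrd37 and Pdk1, lower) beside 14%, 8.44% lower, and 0.00665% called, with a median of -0.05. For Lean it was 0 of 22 beside 3.12% and 0% called, with a median of -0.13. MC + Chemo against Chemo had 3 of 22 (13.6%: Ldha, Aldoa and Tpi1, higher) beside 12.8%, 5.22% higher, and 0% called, with a median of 0.24. The chemotherapy main effect had 5 of 22 (22.7%: Egln3, Pdk1, Eno1, Pfkfb3 and Hk2, lower) beside 6.59%, 3.79% lower, and 0.0599% called, with a lowest adjusted p of 0.42. Without MC 41 it had 3 of 22 below 0.05, beside 6.55% of all genes. There Hk2 moved from -0.71 to -0.36 on the log2 scale, Pfkfb3 from -0.51 to -0.20 and the median over members from -0.30 to -0.16. The interaction had 0 of 22 beside 8.42% and 0% called. DESeq2, which was not run for the interaction, called 0 host members in each of the others. Without CTRL 17 and CTRL 44 edgeR also called 0, with medians of -0.15 for Chemo, 0.15 for MC, 0.18 for MC + Chemo and 0.12 for Lean. Across the 5 groups jointly, 4 of 22 (18.2%: Pdk1, Aldoa, Pfkfb3 and Hk2) were below 0.05 before adjustment, beside 13.7% and 0.492% called, and DESeq2 called 1, Aldoa, beside 4.31% of all murine genes. Of all murine genes, the shares wholly above and wholly below were 0.665% and 0.752% for Chemo, 1.16% and 0.938% for MC, 0.925% and 1.63% for MC + Chemo, 1.46% and 1.48% for Lean, and 0.313% and 1.02% for MC + Chemo against Chemo.

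Tumour and host can be set against each other directly, as the log2 ratio of human to murine CPM of each same-name pair, tested with limma over 10638 pairs. Of 22 member pairs 0 were called in each of the comparisons. EGLN3 had the lowest p: the ratio was higher in Chemo than in CTRL by 1.21 ± 0.42 (log2, SE, adjusted p = 0.238), with the human gene at 0.55 and the murine gene at -0.62 in their own tests. It was 1 of 22 pairs below an unadjusted p of 0.05, beside 11.7% of all pairs and 0.0094% called. The EGLN3 ratio was also higher in MC + Chemo by 0.85 ± 0.40 (SE, adjusted p = 0.349), beside 13.7% of pairs below 0.05 and 0.385% called. EGLN3 in CTRL 17 was the second lowest human value and Egln3 in CTRL 17 the highest murine one. For MC, HK2 was the 1 pair below 0.05, at -0.86 ± 0.40 (SE, adjusted p = 0.377) with the human gene at -0.72 and the murine gene at 0.71, beside 12.7% and 0% called. For Lean, 0 of 22 pairs were below 0.05, beside 4.9% and 0% called. For the chemotherapy main effect EGLN3 was again the 1 pair below 0.05, at 0.63 ± 0.28 (SE, adjusted p = 0.41), beside 11.1% and 0.113% called. The median difference over the 22 pairs was 0.13 for Chemo, 0.01 for MC, 0.02 for MC + Chemo and 0.07 for Lean. In Chemo the human and murine values of BNIP3 (-0.91 and -0.82), NDRG1 (-0.54 and -0.47), KDM3A (-0.45 and -0.42) and SLC2A1 (-0.31 and -0.35) lay side by side. CTRL 17 was the highest CTRL library for all 8 of these genes, and the part of that tumour and of shared reads was not tested.

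**Figure D5:**
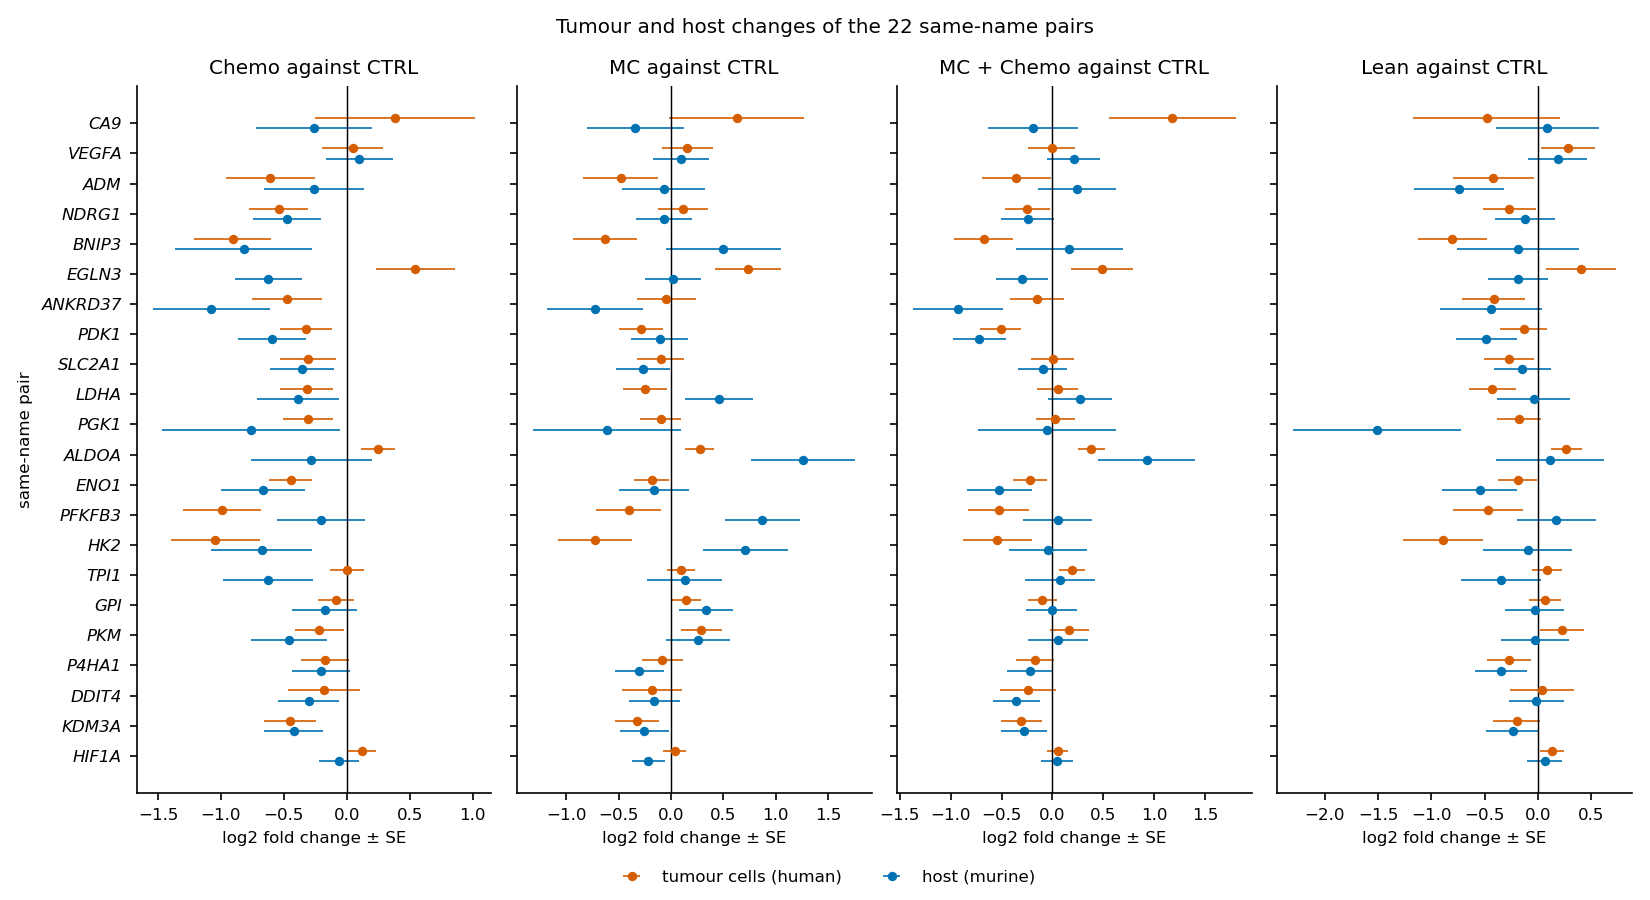
Log2 fold change ± SE of the human and murine gene of each of 22 same-name pairs in the 4 comparisons that share the CTRL group. Human and murine points of EGLN3 lie on opposite sides of 0 for Chemo, and those of HK2 and PFKFB3 do so for MC.

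The rest of the pathway was followed with lists of further genes. Of 22 other human HIF targets, 13 had an unadjusted p below 0.05 for Chemo (11 lower, 2 higher, median -0.34 on the log2 scale) and 0 were called, beside 19.1% and 0% of all genes. Of all genes, 10.9% were lower at that threshold. The summed level of these targets was 4220 CPM in CTRL 17 and 2058, 2490 and 2194 in CTRL 31, 44 and 70. In Chemo the sum was 1708 to 2340. The Chemo difference of this list was not refitted without CTRL 17. For MC + Chemo 5 of 22 were below 0.05 and 2 were called, beside 23.7% of all genes below 0.05 and 4.41% called. P4HA2, a collagen prolyl hydroxylase, rose by 0.61 ± 0.17 (log2, SE, adjusted p = 0.0429), and GBE1, the glycogen branching enzyme, fell by 0.67 ± 0.19 (SE, adjusted p = 0.0435). Without CTRL 17 and CTRL 44 the P4HA2 difference was 0.36 ± 0.18 (SE, adjusted p = 0.441) and the GBE1 difference -0.09 ± 0.15 (SE, adjusted p = 0.839). None of 8 other HIF regulators and 14 other glycolytic genes tested in the tumour cells was called in any comparison. In the host, 12 of 15 other glycolytic genes were below 0.05 for MC (11 higher, median 1.66), beside 13.2% of all genes, 9.2% higher, and 0 were called. Their summed level was 447, 1209, 184, 312 and 189 CPM in MC 6, 41, 42, 48 and 59, and 160 to 268 in CTRL. The MC difference of this list was not refitted without MC 41. That list holds muscle isoforms, and all 12 muscle markers were below 0.05 and higher for MC, with a median of 6.44. The muscle sum was 4555 CPM in MC 41 and 1858 in MC 48, and 17.7 to 43.7 in MC 6, 42 and 59. Ldhb, the heart-type lactate dehydrogenase, was called over the 5 groups (edgeR adjusted p = 0.0494), beside 0.492% of all murine genes called. Of 21 other murine HIF targets, 3 were below 0.05 for Chemo, all lower, beside 5.22% of all genes, and 0 were called.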

How the data were processed

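Tumour RNA of 24 mice was sequenced from the 3′ end in 50-base reads. According to the labels and the study's methods, the authors aligned the reads to the human and murine genomes with BlueBee software and deposited, for each genome, raw counts per gene and counts divided by a DESeq2 size factor per library (a signal scaled for depth; the submitters' processing notes name DESeq2 1.22.2). The notes name the murine build GRCm38. The human build, and how reads matching both genomes were assigned, are not given in the sources used here. The lowest sum of any deposited gene over libraries was 72. Values per library are the deposited normalized counts. Tests used the deposited counts, in R 4.3.3 with edgeR 4.0.16 (TMM scaling, filterByExpr, quasi-likelihood F test over 5 groups, Benjamini-Hochberg adjustment over 16588 human or 15029 murine genes, threshold 0.05, prior count 2). Same-name pairs were tested with limma 3.58.1, and the human share with an exact two-sided permutation test. Alternatives included DESeq2 1.42.0, other scaling and filters, covariates and leaving out each library. The edgeR and limma code was tested on simulated data first. Symbols came from the deposited tables, where 5259 human and 2991 murine identifiers had none. Groups came from the sample titles. MC + Chemo 5 is titled MC + Chemo and labelled MC in another field, and the title was followed. RNA of 3 mice (Lean 3, MC 41, MC 42) was purified on a further column. Counting error is small at these totals, and the spread between mice sets the precision. All members are named. Values of every library are given for members called in any comparison, for HIF1A, CA9, VEGFA, SLC2A1, LDHA and their murine namesakes, and for the 3 members of each genome with the lowest p over the 5 groups. The members and gene lists were chosen with earlier results of these data known.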

Additional observations from a re-analysis of the deposited data

Results flagged for a closer look

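A library was singled out where it lay far from the others of its group, by a gap test that chance passes in about 1 in 20 groups. Of 265 sets of values (a member in a group) 27, or 10.2%, passed it, and 6 were in MC 41, 4 in CTRL 17, 4 in MC + Chemo 25 and 4 in MC + Chemo 52. Values are normalized counts.

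In the tumour cells, CTRL 17 was high for PFKFB3 (3233, others 839 to 1146) and ALDOC (92.1, others 40.6 to 47.6). ALDOC was also high in MC + Chemo 25 (79.5). SLC2A1 was high in Chemo 67 (4145, others 2746 to 3113) and GAPDH in Lean 24 (27291, others 16905 to 18333). ALDOA was low in Lean 54 (3619, others 4272 to 4351). In MC + Chemo 52, ENO2 was low (581, others 1071 to 1365) and PFKP high (2557, others 1948 to 2141).

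In the host, MC 41 was high for Aldoa (9565, others 1156 to 2884), Ldha (2636, others 715 to 1138), Pfkfb3 (1508, others 269.9 to 560.4), Tpi1 (996, others 271 to 464), Gpi1 (1137, others 364 to 432) and Pdk1 (207, others 65.5 to 103). CTRL 17 was high for Aldoa (2118, others 1091 to 1222) and Pdk1 (175, others 92.3 to 103). MC + Chemo 25 was high for Pkm (5898, others 2619 to 3305), Ndrg1 (3225, others 1264 to 1724) and Slc2a1 (919, others 371 to 452). MC + Chemo 52 was high for Bnip3 (738, others 139 to 301) and Pfkfb3 (621, others 244 to 378).

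The remaining host values were Bnip3 in Lean 24 (449, others 179 to 214), Pfkfb3 in Lean 21 (497, others 336 to 349.7), Hk2 in Chemo 67 (355, others 242 to 264), Pgk1 in Chemo 67 (83.6, others 2.02 to 19.5), Ddit4 in Chemo 33 (706, others 339.6 to 403), all high, and Car9 in Chemo 30 (2.33, others 11.1 to 13.8), low.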

How the results depend on the processing

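Counts of members called were recomputed under scaling, filtering, covariate, DESeq2 and leave-one-out alternatives, and 37 named log2 fold changes likewise. Of these values 1264 kept direction and side of the threshold, 12 passed it and 10 turned direction. None of the 37 was past the threshold in the main fit, so 0 could lose it. A kept value can still shrink: BNIP3 for Chemo was -0.91 in the main fit and -0.25 without CTRL 17, and counts as kept. DESeq2 called 1 human member for Chemo, 1 for MC + Chemo and 1 murine member over the 5 groups, beside 3.56%, 7.93% and 4.31% of all genes, where edgeR called 0. Leaving out 1 library gave 0 to 5 human members called for Chemo (5 without CTRL 31, beside 9.74% of all human genes called there: BNIP3, ENO1, PFKFB3, HK1 and HK2, and 3 without CTRL 70, beside 6.03%: BNIP3, PFKFB3 and HK1), 0 to 1 for MC + Chemo, 0 to 1 for the chemotherapy main effect and 0 to 1 pair for Chemo, each 1 without CTRL 31. Over the single libraries left out, 0 to 1776 of all human genes were called for MC + Chemo and 0 to 950 for the chemotherapy main effect. Leaving out CTRL 17 and CTRL 44, an alternative chosen after seeing the data like that which also drops Lean 24, called 0 members. There the BNIP3 differences became 0.0066 (Chemo), 0.30 (MC), 0.26 (MC + Chemo) and 0.12 (Lean), and HK1 for MC + Chemo 0.20. Without Lean 24 as well they were 0.00669, 0.28 and 0.24 for BNIP3 (Chemo, MC, MC + Chemo) and 0.18 for HK1. Without CTRL 17 alone BNIP3 for MC was 0.0275, with -0.84 to 0.0275 over all single libraries. The human share difference, in percentage points, ran from -1.12 to 1.68 for Chemo and -0.0353 to 2.64 for MC + Chemo over single libraries left out. Scaling murine counts to human plus murine totals moved the median of all murine genes to 0.09 (Chemo), -0.10 (MC + Chemo), 0.13 (Lean) and -0.18 (MC + Chemo against Chemo), with member medians of -0.31, -0.16, 0.04 and 0.01. The causes were not tested. No paired analysis was possible because the mouse numbers are not shared between groups. Depth limited Car9, Pgk1 and Ankrd37 most.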

Other observations

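Red cell markers in the host reads were lower in CTRL than in most other libraries. Their summed level was 123 to 451 CPM in CTRL, 800 to 2793 in Chemo, 601 to 1604 in MC, 875 to 4041 in MC + Chemo and 879 to 1023 in Lean, so no CTRL tumour reached the level of any other group. The 5 markers tested all had an unadjusted p below 0.05 for Chemo (median difference 2.40 on the log2 scale), beside 5.22% of all murine genes, and 0 were called by edgeR. Hba-a1, an alpha globin, was called over the 5 groups jointly (edgeR adjusted p = 0.0491), beside 0.492% of all murine genes called.

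In the tumour cells the 10 proliferation genes listed were all lower in Chemo than in CTRL, with a median of -0.33 on the log2 scale, and 2 of 10 had an unadjusted p below 0.05, beside 19.1% of all genes. None was called. Their summed level was 1917 CPM in CTRL 17 and 2052 in CTRL 44. It was 1513 in CTRL 31 and 1369 in CTRL 70, inside the Chemo range of 1038 to 1542. VIM was the 1 gene called among 10 markers of the line, lower in MC + Chemo by a log2 difference of -1.78 ± 0.45 (SE, edgeR adjusted p = 0.0336), and it was highest in CTRL 17 and CTRL 44. Of all human genes 4.41% were called in that comparison.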
